A study of Mus musculus with 8 samples.

Results

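Cdkn1a and 9 other genes of the p53 pathway were followed in mouse CD8 T cells that carried or did not carry a retroviral TOX construct. The 10 genes were Cdkn1a, Phlda3, Ccng1, Mdm2, Bax, Bbc3, Trp53inp1, Eda2r, Zmat3 and Trp53, taken by symbol from the 31815 genes of the count table. All 10 passed the filter on low counts, which 13329 genes passed in all. RNA was sequenced from spleen CD8 T cells of OTI mice, genotype C57BL/6-Tg(TcraTcrb)1100Mjb/J, bred so that their T cells recognise an ovalbumin peptide through a transgenic receptor. The cells were kept with the OVA peptide for 3 days, received the construct at 24 h and were sorted on day 5.

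There were 4 groups of 2 libraries. The TOXFL-positive group was the brightest 20% of the GFP-positive cells that carried TOXFL with an IRES-GFP cassette, and the TOXFL-negative group was the GFP-negative cells sorted for that construct. The TOXdeltaN-positive and TOXdeltaN-negative groups were sorted in the same way for TOXdeltaN, which the labels give by name alone. TOX, an HMG-box nuclear factor, is best known in T cells for its part in exhaustion. All groups shared the mouse genotype, the peptide and the culture. Cells with a vector encoding GFP alone were not analysed here, so the presence of a vector, GFP brightness and the TOX construct cannot be told apart. The labels do not say whether replicates came from separate mice or cultures, and p-values cover no more than the spread among these libraries, possibly a technical one.

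The protein p53, encoded by Trp53 in the mouse, is a transcription factor held low by the ubiquitin ligase MDM2 and stabilised after DNA damage and other stress. It binds response elements made of paired decamer half-sites and raises genes that halt the cell cycle, repair DNA or start apoptosis. In activated T cells, p53 and its target p21 limit proliferation during clonal expansion.

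Total counts per library were 25059112 to 31240067. Tox checks the labels, although reads of the construct and of the cell's own gene share its row. It had 104.8 and 126.3 CPM (counts per 1e6 counts of a library) in TOXFL-positive libraries, against 25.1 and 34.4 CPM in TOXFL-negative libraries. TOXdeltaN-positive libraries had 107.2 and 82.9 CPM, against 21.8 and 32.2 CPM in TOXdeltaN-negative libraries. Each positive library lay above each negative library, which matches the labels. The summed level of the 4 CD8 T cell markers found (Cd3e, Cd8a, Cd8b1 and Cd3d) was 2460 to 2760 CPM in GFP-positive libraries and 2670 to 2850 CPM in GFP-negative libraries. Within that sum, Cd8b1 was lower in GFP-positive libraries (493.2 to 623.7 CPM) than in GFP-negative libraries (657.2 to 787.8 CPM). Of all tested genes, 8.08% were lower without overlap in this way. Cd8a was higher (757.1 to 787.4 against 696.7 to 751.5 CPM), as were 8.22% of all tested genes. The meaning of these differences was not tested. Of markers of other cells, Pax5 and Adgre1 were at 0 in every library, and summed levels of the B cell, myeloid, NK cell and CD4 T cell lists did not exceed 17.1 CPM. The CD4 T cell sum was higher in replicate 1 (2.67 to 4.45 CPM) than in replicate 2 (0.91 to 2.11 CPM), and what this difference means was not tested. The mitochondrial share of counts was lower with GFP, at 0.45 to 0.798% in GFP-positive libraries and 0.832 to 0.909% in GFP-negative libraries, and its part in the results below was not tested.

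Of the 10 genes, 8 had a RefSeq promoter window on GRCm38.p6, running from 250 bases before to 50 bases after a transcript start, and 11 windows were found for them. The p53 half-site consensus, a decamer that reads the same on both strands, was present in 5 of the 11 windows, 1 each of Cdkn1a, Ccng1, Mdm2, Bax and Trp53. It was present in 8.36% of all 32851 windows of the same length. The stretches with a match are shown with the letters that match the consensus in capitals. A match of letters does not show that p53 binds there, and binding was not tested.
Cdkn1a, chr17:29090886-29090957, plus strand: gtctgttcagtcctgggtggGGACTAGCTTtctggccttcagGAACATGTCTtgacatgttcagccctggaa
Ccng1, chr11:40755442-40755491, minus strand: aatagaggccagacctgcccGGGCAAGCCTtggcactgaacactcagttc
Mdm2, chr10:117710915-117710964, minus strand: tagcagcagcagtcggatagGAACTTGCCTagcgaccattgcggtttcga
Bax, chr7:45467070-45467119, minus strand: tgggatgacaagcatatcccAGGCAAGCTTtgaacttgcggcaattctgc
Trp53, chr11:69580264-69580313, plus strand: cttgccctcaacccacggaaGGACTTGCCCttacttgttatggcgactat
The Cdkn1a stretch was the only one of these with 2 half-sites. They began 73 and 51 bases before the transcript start of their own window, the upstream one of the 2 Cdkn1a windows. Of all windows, 0.359% held 2 or more. The same stretch held a pair of CATG cores with 6 bases between them, the first in capitals and the next in the lower-case letters that follow. This pair is thus not the pair of half-sites in capitals. Cores so spaced were found in 0.712% of windows and in no other window of these genes. A second Cdkn1a window, and those of Phlda3, Bbc3 and Eda2r, had no half-site letters, which says nothing about binding elsewhere. No window was found for Trp53inp1 and Zmat3.

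Levels between genes were compared per kilobase of merged exons (GENCODE M21). In the TOXFL-positive group Bax was highest, at 136.5 CPM per kilobase, followed by Ccng1 at 77.8 and Trp53 at 59.7. Mdm2 at 23.0, Phlda3 at 22.0, Trp53inp1 at 20.6, Cdkn1a at 15.2 and Bbc3 at 14.4 CPM per kilobase formed a middle range. Zmat3, at 1.90, and Eda2r, at 0.0512 CPM per kilobase, were lowest. Neighbours in the middle range lay close together, and their order was not tested.

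**Figure D1:**
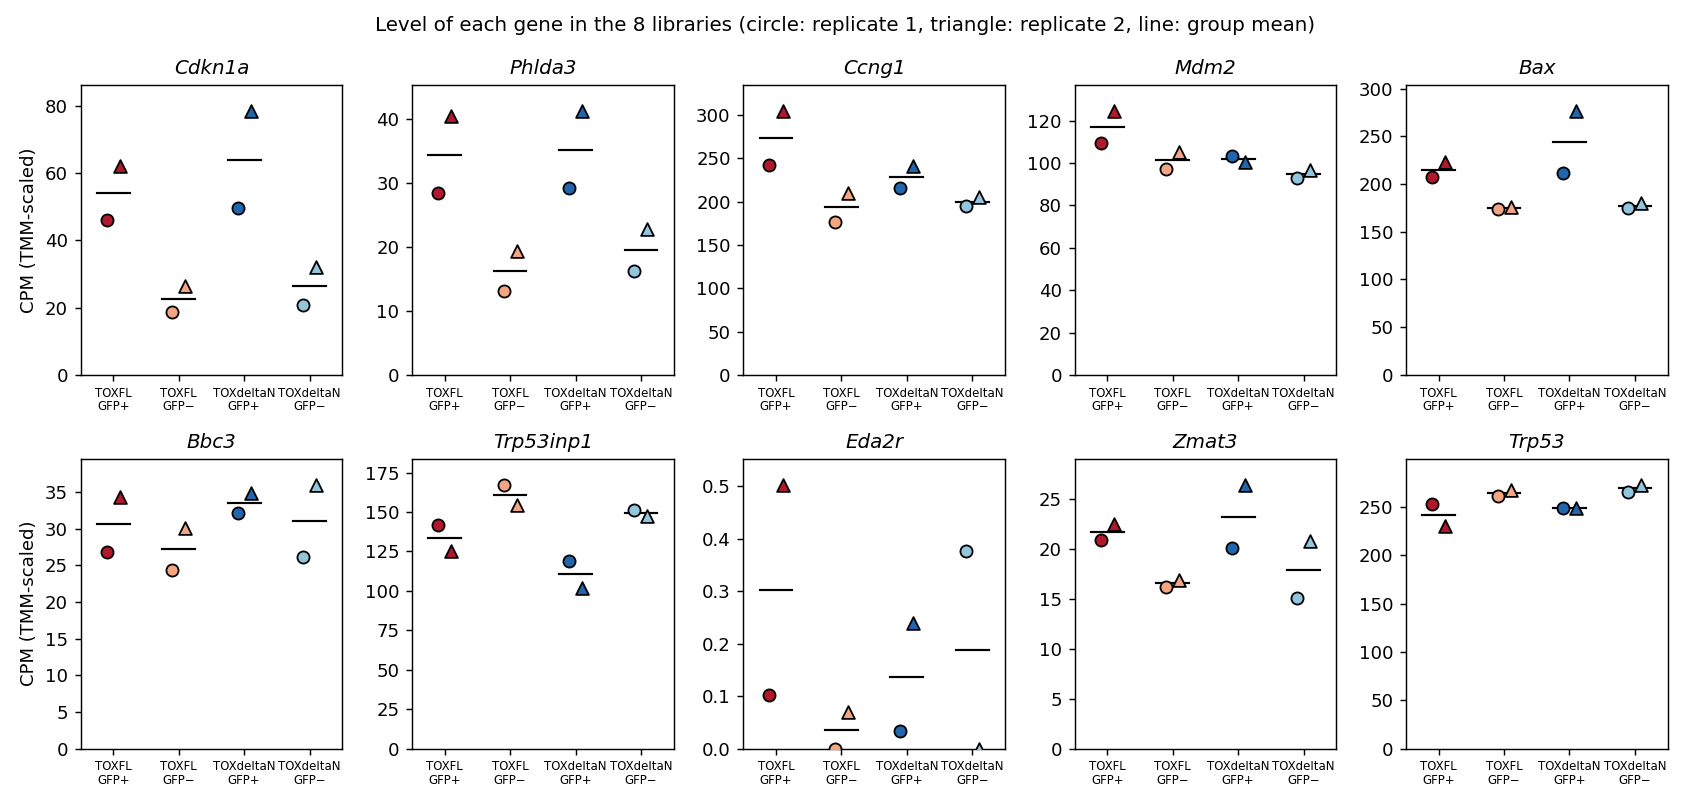
Level of each of the 10 genes in the 8 libraries, in CPM scaled with TMM factors, with GFP-positive groups left of their GFP-negative groups. Circles are replicate 1, triangles replicate 2 and lines the mean of 2 libraries; each panel has its own axis from 0. Cdkn1a and Phlda3 are higher in each GFP-positive library than in any GFP-negative library.

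Cdkn1a and Phlda3, which both act to slow growth, had the largest fold changes of the 9 genes that were well above 0 counts. Cdkn1a encodes p21, the inhibitor of cyclin-dependent kinases through which p53 arrests the cell cycle, and lies on chromosome 17 (29090976 to 29100727, plus strand, ENSMUSG00000023067.14). It had 46.2 and 62.1 CPM in TOXFL-positive libraries, against 18.8 and 26.5 CPM in TOXFL-negative libraries. With TOXdeltaN it had 49.7 and 78.4 CPM in positive libraries, against 20.9 and 32.2 CPM in negative libraries. All 4 GFP-positive libraries were above all 4 GFP-negative libraries, and replicate 2 was above replicate 1 in each group. The log2 difference within the same construct and replicate number was 1.29 and 1.23 for TOXFL and 1.25 and 1.28 for TOXdeltaN.

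Averaged over both constructs, Cdkn1a rose by 1.26 on the log2 scale in GFP-positive cells (SE 0.195, adjusted p = 0.0216 by the edgeR quasi-likelihood test), a 2.40-fold difference. With the replicate number as a block the value was 1.27 (SE 0.0707, adjusted p = 3.46e-05). For TOXFL alone the log2 fold change was 1.26 (SE 0.276, adjusted p = 0.125), which did not pass, and it passed with the block (SE 0.101, adjusted p = 0.0011). For TOXdeltaN alone it was 1.27 (SE 0.274, adjusted p = 0.219) and passed with the block (SE 0.0995, adjusted p = 0.000772), a call that was lost without TOXdeltaN-negative replicate 1 (adjusted p = 0.0531). The size was thus almost the same in each fit, while in these edgeR fits the call for a single construct rested on the block. It also depended on the tool and the filter. Without the block, DESeq2 called Cdkn1a for TOXFL (adjusted p = 7.89e-05) and TOXdeltaN (adjusted p = 0.000107), as did edgeR without the filter on low counts. By limma-voom without the block neither passed (adjusted p of 0.121 and 0.226). Without the block the averaged call was lost in the fits that left out TOXFL-negative replicate 1 (adjusted p = 0.131), TOXFL-positive replicate 2 (0.0881), TOXdeltaN-negative replicate 1 (0.125) or TOXdeltaN-negative replicate 2 (0.0732). With the block the averaged call held in 8 of 8 such fits.

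Phlda3, on chromosome 1 (135766119 to 135769136, plus strand), encodes a pleckstrin homology protein that competes with AKT for membrane lipids and so restrains AKT. It had 28.4 and 40.4 CPM in TOXFL-positive libraries, against 13.1 and 19.4 CPM in TOXFL-negative libraries. TOXdeltaN-positive libraries had 29.1 and 41.2 CPM, against 16.2 and 22.8 CPM in TOXdeltaN-negative libraries. Neither pair of groups overlapped. The averaged change was 0.96 on the log2 scale (SE 0.183, adjusted p = 0.0338), and 0.97 with the block (SE 0.0701, adjusted p = 0.000118). With the block Phlda3 also rose for TOXFL, by 1.09 (SE 0.0998, adjusted p = 0.0011), and for TOXdeltaN, by 0.85 (SE 0.0985, adjusted p = 0.00596). Without the block neither construct alone passed by edgeR (adjusted p of 0.145 and 0.329). The TOXdeltaN call was lost without TOXdeltaN-negative replicate 1 (adjusted p = 0.15) or replicate 2 (0.166). Without the block the averaged call held in 2 of 8 fits that left out a library, those without TOXFL-positive replicate 1 or TOXdeltaN-positive replicate 1. In the others its adjusted p lay between 0.0549 and 0.168.

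Ccng1, on chromosome 11 (40748552 to 40755311, minus strand), encodes cyclin G1, a p53 target that takes part in feedback on MDM2. It had 242.3 and 304.2 CPM in TOXFL-positive libraries, against 176.2 and 210.2 CPM in TOXFL-negative libraries. TOXdeltaN-positive libraries had 215.9 and 240.8 CPM, against 194.8 and 205.3 CPM in TOXdeltaN-negative libraries. Neither pair of groups overlapped, and the gap was wider for TOXFL. The log2 fold change for TOXFL was 0.50 (SE 0.131, adjusted p = 0.167), and 0.50 with the block (SE 0.0858, adjusted p = 0.0145). That blocked call held in 3 of 8 fits that left out a library: it was lost without either TOXFL-negative library (adjusted p of 0.21 and 0.147), TOXFL-positive replicate 2 (0.153), or TOXdeltaN-negative replicate 1 (0.0519) or 2 (0.0532). For TOXdeltaN the value was 0.19 (adjusted p = 0.56, and 0.265 with the block). Averaged over both constructs it was 0.35 without the block (SE 0.0927, adjusted p = 0.081), and Ccng1 rose by 0.34 with it (SE 0.0606, adjusted p = 0.00709). That call was lost without TOXFL-negative replicate 1 (adjusted p = 0.0551) or TOXdeltaN-negative replicate 2 (0.0952).

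Mdm2, on chromosome 10 (117688875 to 117710758, minus strand), encodes the ligase that degrades p53 and is itself a p53 target. It had 109.5 and 124.4 CPM in TOXFL-positive libraries, against 97.3 and 105.2 CPM in TOXFL-negative libraries. TOXdeltaN-positive libraries had 103.2 and 100.7 CPM, against 92.9 and 96.5 CPM in TOXdeltaN-negative libraries. The groups did not overlap within a construct, but the log2 fold changes of 0.21 for TOXFL and 0.11 for TOXdeltaN did not pass in either fit (adjusted p of 0.398 and 0.664 without the block, 0.217 and 0.527 with it).

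Among the genes of apoptosis, Bax was called higher in the blocked average and Bbc3 was not called. Bax, on chromosome 7 (45461697 to 45466898, minus strand), encodes the protein that opens pores in the outer mitochondrial membrane. It had 207.6 and 222.8 CPM in TOXFL-positive libraries, against 173.5 and 175.5 CPM in TOXFL-negative libraries. TOXdeltaN-positive libraries had 211.6 and 276.2 CPM, against 175.2 and 179.7 CPM in TOXdeltaN-negative libraries. All 4 GFP-positive libraries were above all 4 GFP-negative libraries. In edgeR the averaged change of 0.38 on the log2 scale did not pass without the block (SE 0.0864, adjusted p = 0.0555), and Bax rose by 0.38 with it (SE 0.0706, adjusted p = 0.00923). In these edgeR fits Bax passed for neither construct alone. Its log2 fold changes were 0.30 for TOXFL (adjusted p = 0.33, and 0.132 with the block) and 0.46 for TOXdeltaN (adjusted p = 0.282, and 0.0576 with the block). The blocked averaged call was lost without TOXFL-negative replicate 2 (adjusted p = 0.0739) or TOXdeltaN-negative replicate 1 (0.0522) or 2 (0.102). Other fits differed: Bax passed for TOXdeltaN by blocked DESeq2 (adjusted p = 0.00342), blocked limma-voom (0.0473) and edgeR without the filter (0.00972). DESeq2 without the block also called its average (adjusted p = 0.00176). Bax shares 192 exon bases with Gm45808, which had 1 to 23 counts per library.

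Bbc3, which encodes PUMA, a BH3-only protein that frees BAX to act, lies on chromosome 7 (16308393 to 16318205, plus strand). It had 26.8 and 34.4 CPM in TOXFL-positive libraries, against 24.4 and 30.1 CPM in TOXFL-negative libraries. TOXdeltaN-positive libraries had 32.2 and 34.9 CPM, against 26.1 and 36.0 CPM in TOXdeltaN-negative libraries. Both pairs of groups overlapped, and the log2 fold changes were 0.17 (SE 0.182) for TOXFL and 0.11 (SE 0.181) for TOXdeltaN. Eda2r, on chromosome X (97333840 to 97377216, minus strand), encodes a TNF receptor family member that binds ectodysplasin A2. It was near 0, with 3 and 16 raw counts in TOXFL-positive libraries, against 0 and 2 in TOXFL-negative libraries. TOXdeltaN-positive libraries had 1 and 6 raw counts, against 11 and 0 in TOXdeltaN-negative libraries. No difference in Eda2r was detectable at these counts.

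Zmat3, on chromosome 3 (32334792 to 32366014, minus strand), encodes a zinc finger protein that binds RNA. It had 20.9 and 22.5 CPM in TOXFL-positive libraries, against 16.2 and 16.9 CPM in TOXFL-negative libraries. TOXdeltaN-positive libraries had 20.1 and 26.4 CPM, against 15.1 and 20.8 CPM in TOXdeltaN-negative libraries. The TOXFL groups were apart and the TOXdeltaN groups overlapped. Neither construct alone passed by edgeR. The log2 fold change was 0.39 for TOXFL (adjusted p = 0.384, and 0.138 with the block). For TOXdeltaN it was 0.37 (adjusted p = 0.431, and 0.162 with the block). Averaged over both constructs the log2 fold change was 0.38 (SE 0.126, adjusted p = 0.127), and Zmat3 rose with the block (0.38, SE 0.0922, adjusted p = 0.0263). That call held in 3 of 8 fits that left out a library; it was lost without either TOXFL-negative library (adjusted p of 0.0508 and 0.141), TOXFL-positive replicate 1 (0.11) or either TOXdeltaN-negative library (0.138 and 0.0737).

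Trp53inp1 and Trp53 had lower levels in each GFP-positive library, and Trp53inp1 was called. Trp53inp1, on chromosome 4 (11156431 to 11174379, plus strand), encodes a stress-induced protein that acts in autophagy and as a cofactor of p53. It had 141.8 and 125.3 CPM in TOXFL-positive libraries, against 167.1 and 154.7 CPM in TOXFL-negative libraries. TOXdeltaN-positive libraries had 119.1 and 102.1 CPM, against 151.1 and 147.3 CPM in TOXdeltaN-negative libraries. All 4 GFP-positive libraries were below all 4 GFP-negative libraries, so this p53 target moved opposite to Cdkn1a. For TOXFL alone its log2 fold change was -0.27 and did not pass by edgeR (adjusted p = 0.328, and 0.106 with the block). For TOXdeltaN alone it was -0.43 without the block, which did not pass (adjusted p = 0.268). Averaged over both constructs Trp53inp1 fell by 0.35 on the log2 scale (SE 0.0765, adjusted p = 0.0492), and by 0.35 with the block (SE 0.0585, adjusted p = 0.00542). The call without the block held in 1 of 8 fits that left out a library, the one without TOXdeltaN-positive replicate 1, with adjusted p of 0.0561 to 0.239 in the others, and was lost with upper-quartile scaling (adjusted p = 0.0514). The blocked call was lost without TOXdeltaN-negative replicate 2 (adjusted p = 0.0735). For TOXdeltaN alone Trp53inp1 fell by 0.44 with the block (SE 0.0829, adjusted p = 0.0391), a call that held in 2 of 8 fits that left out a library, those without a TOXdeltaN-positive library (adjusted p up to 0.556 in the others).

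Trp53, on chromosome 11 (69580359 to 69591873, plus strand), had 253.0 and 229.9 CPM in TOXFL-positive libraries, against 261.1 and 267.4 CPM in TOXFL-negative libraries. TOXdeltaN-positive libraries had 249.1 and 248.5 CPM, against 265.8 and 272.5 CPM in TOXdeltaN-negative libraries. The groups did not overlap, but the differences were small, with log2 fold changes of -0.13 (adjusted p = 0.559) and -0.11 (adjusted p = 0.596), and neither passed with the block (adjusted p of 0.419 and 0.472). The amount and activity of the p53 protein were not measured.

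**Figure D2:**
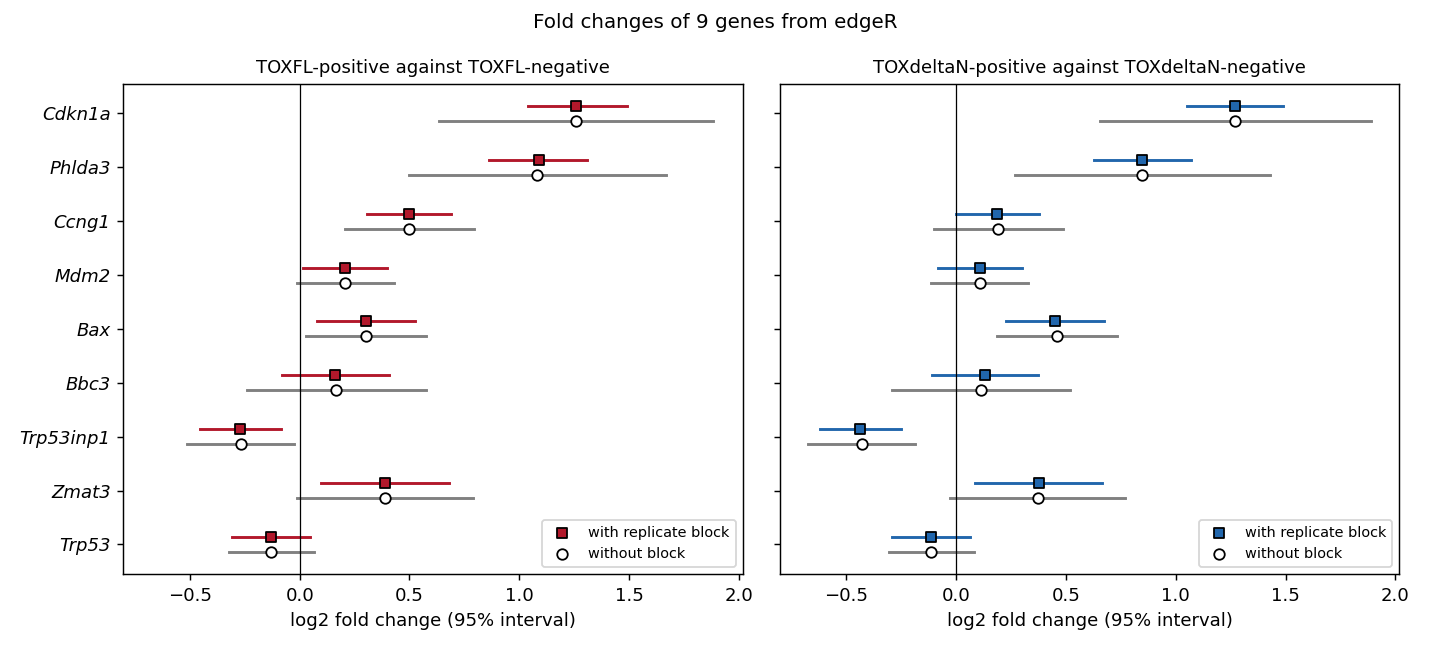
Log2 fold change (horizontal axis) of 9 genes in GFP-positive over GFP-negative cells, for TOXFL on the left and TOXdeltaN on the right. The 95% intervals were derived from the edgeR F-test. Squares are from the fit with the replicate block and open circles from the fit without it, and the points of a gene nearly coincide while the blocked intervals are narrower; Eda2r is left out because it was near 0 counts.

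In the edgeR test without the block, 0 of the 10 genes were called for TOXFL, against 0.045% of all tested genes. For TOXdeltaN 0 of the 10 were called, against 0.03% of all tested genes. At an unadjusted p under 0.05 there were 5 of the 10 for TOXFL (1790 genes in all) and 4 for TOXdeltaN (1632 genes in all). DESeq2 called 3 of the 10 for TOXFL (2.36% of all genes) and 3 for TOXdeltaN (0.908%), while limma-voom called 0 in both (0.0375% of all genes in each). Averaged over both constructs edgeR called 3 of the 10, namely Cdkn1a and Phlda3 higher, against 1.34% of all tested genes, and Trp53inp1 lower, against 1.08% (2.42% in either direction).

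With the replicate block 3 genes were called higher for TOXFL (Cdkn1a, Phlda3 and Ccng1), against 1.51% of all tested genes. For TOXdeltaN 2 were called higher (Cdkn1a and Phlda3), against 0.773% of all genes, and Trp53inp1 was called lower, against 0.878%. Averaged over both constructs 6 of the 10 were called, against 12.7% of all genes. Cdkn1a, Phlda3, Ccng1, Bax and Zmat3 were higher, against 6.04% of all genes, and Trp53inp1 was lower, against 6.69%. Groups without overlap were far more common than calls. For TOXFL 7 of the 10 genes were higher in both positive libraries, against 24.9% of all genes, and 2 were lower, against 25.5%. For TOXdeltaN these were 5 against 21.1% and 2 against 20.8%. The 7 for TOXFL include Eda2r, which was near 0 counts. Over both constructs 4 of the 10 were higher in all 4 GFP-positive libraries than in any GFP-negative library (8.22% of all genes) and 2 were lower (8.08%).

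The constructs were compared by the difference of their effects, TOXFL minus TOXdeltaN. For Cdkn1a it was -0.01 on the log2 scale (95% interval -0.88 to 0.85), and with the block -0.01 (-0.32 to 0.31), so differences of these sizes could not be told from 0. For Phlda3 it was 0.24 with the block (-0.07 to 0.55). For Ccng1 it was 0.31 with the block (0.04 to 0.58), with an unadjusted p of 0.0286 from edgeR that did not pass adjustment (adjusted p = 0.989). In edgeR 0 of the 10 genes were called in either fit, against 0% of all tested genes. At an unadjusted p under 0.05 there were 0 of the 10 without the block (318 genes in all) and 1 with it, Ccng1 (494 genes in all), and 0 were called by DESeq2 (0.0525% of all genes) or limma-voom (0%). An absent call does not show that the constructs act alike.

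**Figure D3:**
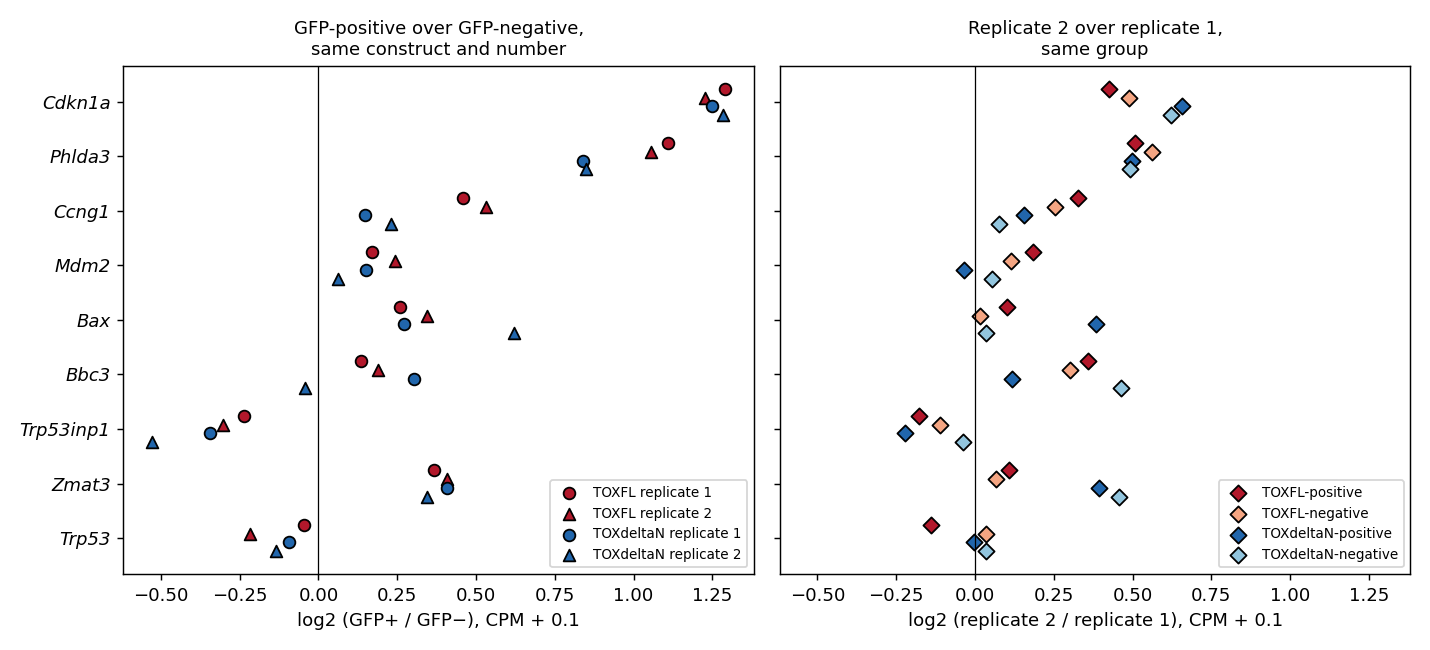
Left, log2 ratio of GFP-positive over GFP-negative within the same construct and replicate number; right, log2 ratio of replicate 2 over replicate 1 within a group, both from CPM plus 0.1. The 4 Cdkn1a ratios on the left lie between 1.23 and 1.29, and those on the right between 0.43 and 0.66.

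Cdkn1a and Phlda3 also differed between replicate numbers. Cdkn1a was higher in replicate 2 by 0.55 on the log2 scale (SE 0.0701, adjusted p = 0.00341 by edgeR) and Phlda3 by 0.52 (SE 0.0698, adjusted p = 0.00433). They were the 2 of the 10 genes called, against 3.02% of all genes. Of the 10, 6 were higher in replicate 2 in all 4 groups, against 13% of all genes, and Trp53inp1 was lower in all 4, against 13.9%. Thus the 5 genes called higher with GFP in the blocked average were also higher in replicate 2 in each group, and Trp53inp1, called lower with GFP, was also lower. The labels do not explain the number.

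The genes whose level followed Cdkn1a most closely over the 8 libraries were Fbxo5, Prdx5, Tubg1, Hmgb3 and Spc24. Pearson's r of log2(CPM + 1) with Cdkn1a was 0.9959, 0.9936, 0.9935, 0.9912 and 0.99 in that order, among 9054 genes with at least 8 CPM. Fbxo5, which encodes an inhibitor of the anaphase-promoting complex, had 111.4 and 122.6 CPM in TOXFL-positive libraries, against 80.9 and 89.0 CPM in TOXFL-negative libraries. With TOXdeltaN it had 113.6 and 127.5 CPM in positive libraries, against 83.2 and 95.7 CPM in negative libraries. Its libraries thus kept the order of Cdkn1a at a smaller fold. Phlda3 ranked 8 (r = 0.987), Zmat3 had r = 0.943, Bax 0.935, Ccng1 0.82, Bbc3 0.691, Mdm2 0.584, Trp53 -0.741 and Trp53inp1 -0.921. These values describe libraries that share the GFP sort and the replicate number.

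Other genes of the pathway moved in both directions. Fits that left out a library were not examined for the lists below, so the stability of these calls was not tested. Of 30 further p53 target genes, 29 were tested, and 22 had a positive log2 fold change for TOXFL and 19 for TOXdeltaN in the blocked fit, against 49.3% and 50.7% of all genes. Their median was 0.13 for TOXFL and 0.06 for TOXdeltaN, against medians of all genes of -0.00382 and 0.0044. With the block Psrc1, Perp and Sesn2 rose for TOXFL (1.51% of all genes did) and Rrm2b fell (1.97%), while Psrc1 and Sesn2 rose for TOXdeltaN (0.773%) and Sesn1 fell (0.878%). Without the block 0 were called for either construct. In the average over both constructs Dcxr, Psrc1 and Sesn2 rose (1.34% of all genes) and Sesn1 fell (1.08%) without the block. With it 7 rose (6.04% of all genes) and 3 fell (6.69%), the others being Perp, Pidd1, Plk2 and Rps27l higher and Rrm2b and Xpc lower.

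Psrc1, which encodes a protein of the mitotic spindle, had 32.2 and 44.3 CPM in TOXFL-positive libraries, against 16.3 and 19.7 CPM in TOXFL-negative libraries. Its log2 fold change with the block was 1.07 for TOXFL (SE 0.105, adjusted p = 0.00134) and 0.81 for TOXdeltaN (SE 0.104, adjusted p = 0.0104). Perp, which encodes a desmosome protein also linked to apoptosis, had a log2 fold change of 1.01 for TOXFL (SE 0.2, adjusted p = 0.0268). The sestrins, which restrain mTORC1, moved apart: Sesn2 rose by 0.42 for TOXFL and 0.51 for TOXdeltaN (adjusted p of 0.0437 and 0.036), and Sesn1 fell by 0.47 for TOXdeltaN (adjusted p = 0.0387). Rrm2b, the p53-induced subunit of ribonucleotide reductase, fell by 0.57 for TOXFL (adjusted p = 0.0267). Fas, a death receptor, had log2 fold changes of 0.14 and 0.01 and was not called.

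Of 20 regulators and partners of p53, 19 were tested. With the block Atm, Crebbp and Prkdc fell for TOXFL, against 1.97% of all genes, and 0 were called for TOXdeltaN. In the blocked average 6 fell, against 6.69% of all genes (Atm, Crebbp, Prkdc, Ep300, Hipk2 and Daxx), and Chek1 rose, against 6.04%. All 6 were lower with GFP within each construct and replicate number, but by unequal amounts. Atm, Prkdc, Ep300 and Hipk2 had their lowest level in TOXdeltaN-positive replicate 2. There Ep300 had 76.6 CPM and Hipk2 32.5 CPM, against 156.8 and 51.9 CPM in replicate 1 of that group. Without the block 0 were called for either construct or in the average. Atm, the kinase that signals double-strand breaks to p53, had 100.6 and 84.7 CPM in TOXFL-positive libraries, against 144.6 and 114.6 CPM in TOXFL-negative libraries. It fell by 0.48 on the log2 scale (SE 0.101, adjusted p = 0.0328). Crebbp, an acetyltransferase that acts on p53, fell by 0.52 (adjusted p = 0.0229), and Prkdc, the DNA-dependent kinase, by 0.54 (adjusted p = 0.0323). Mdm4, the partner of Mdm2, had log2 fold changes of -0.19 and -0.46 and was not called. The p53 relatives Trp63 and Trp73 were at most at 0.237 CPM and were not tested.

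Of 13 BCL2 family partners, 12 were tested. With the block Bcl2l11, which encodes the BH3-only protein BIM, fell for TOXFL (-0.39, adjusted p = 0.0269) and for TOXdeltaN (-0.37, adjusted p = 0.0489), where 1.97% and 0.878% of all genes fell. Its levels were 300.3 and 267.2 CPM in TOXFL-positive libraries, against 380.4 and 361.9 CPM in TOXFL-negative libraries. Bak1, the other pore-forming protein beside BAX, and Bmf, a BH3-only protein, fell for TOXFL (-1.30 and -1.35, adjusted p of 0.0484 and 0.0494). Bak1 had 3.69 and 1.57 CPM in TOXFL-positive libraries, against 6.23 and 6.27 CPM in TOXFL-negative libraries. Mcl1, a survival protein, was not called. Without the block 0 of this list were called for either construct, and Bcl2l11 fell in the average (-0.38, adjusted p = 0.0292; 1.08% of all genes fell). The blocked average had Bak1, Bmf and Bcl2l11 lower (6.69% of all genes) and Bcl2l1 and Bcl2a1b higher (6.04%). Bcl2a1b has near-identical copies, so its count is uncertain.

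Of 12 partners that p21 binds (kinases, cyclins and PCNA), all tested, Cdk1, Ccna2 and Ccnb1 rose for TOXFL in the blocked fit, against 1.51% of all genes, and Cdk6 fell, against 1.97%. Cdk1 and Ccna2 rose for TOXdeltaN, against 0.773%, and 0 fell. Cdk1, the mitotic kinase, had 183.6 and 179.7 CPM in TOXFL-positive libraries, against 115.4 and 129.6 CPM in TOXFL-negative libraries. TOXdeltaN-positive libraries had 192.9 and 205.9 CPM, against 123.2 and 138.2 CPM in TOXdeltaN-negative libraries. The groups were well apart, and Cdk1 had log2 fold changes of 0.57 for TOXFL (SE 0.0843, adjusted p = 0.00927) and 0.61 for TOXdeltaN (SE 0.0842, adjusted p = 0.0122) with the block. Cdk6 fell by 0.40 for TOXFL (adjusted p = 0.0494). For both constructs averaged, 3 rose without the block (Cdk1, Ccna2 and Ccnb1), against 1.34% of all genes, and 8 with it, against 6.04%. Among 6 other inhibitors of cyclin-dependent kinases, 4 were tested. Cdkn2c, which encodes p18, rose for TOXFL with the block (0.56, adjusted p = 0.0233), against 1.51% of all genes. Cdkn2c also rose in the average without the block (0.45, adjusted p = 0.0257), against 1.34% of all genes. In the blocked average Cdkn2c and Cdkn2d rose, against 6.04%.

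The genes listed as lowered by p53 and p21 through the DREAM complex, a repressor of cell cycle genes, had positive log2 fold changes in 20 of 20 cases for both constructs, against 49.3% of all genes for TOXFL and 50.7% for TOXdeltaN, with medians of 0.45 for TOXFL and 0.27 for TOXdeltaN in the blocked fit. In that fit 12 rose for TOXFL, against 1.51% of all genes, and 5 for TOXdeltaN (Cdk1, Ccna2, Cdc20, Birc5 and Aurka), against 0.773%, and 0 fell. The blocked values ran from 0.00885 to 0.614 for TOXFL and from 0.0251 to 0.611 for TOXdeltaN, so the lowest were close to 0. Without the block 0 were called for a single construct. In the average over both constructs 10 rose without the block, against 1.34% of all genes, and 14 with it, against 6.04%. Aurka, a mitotic kinase, had 120.6 and 129.2 CPM in TOXFL-positive libraries, against 72.9 and 90.7 CPM in TOXFL-negative libraries. Birc5, which encodes survivin, had a log2 fold change of 0.50 for TOXFL and 0.52 for TOXdeltaN (adjusted p of 0.0116 and 0.0167 with the block). These lists overlap in Cdk1, Ccna2 and Ccnb1. In bulk libraries, more cells in a stage of the cycle and more RNA per cell cannot be told apart.

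**Figure D4:**
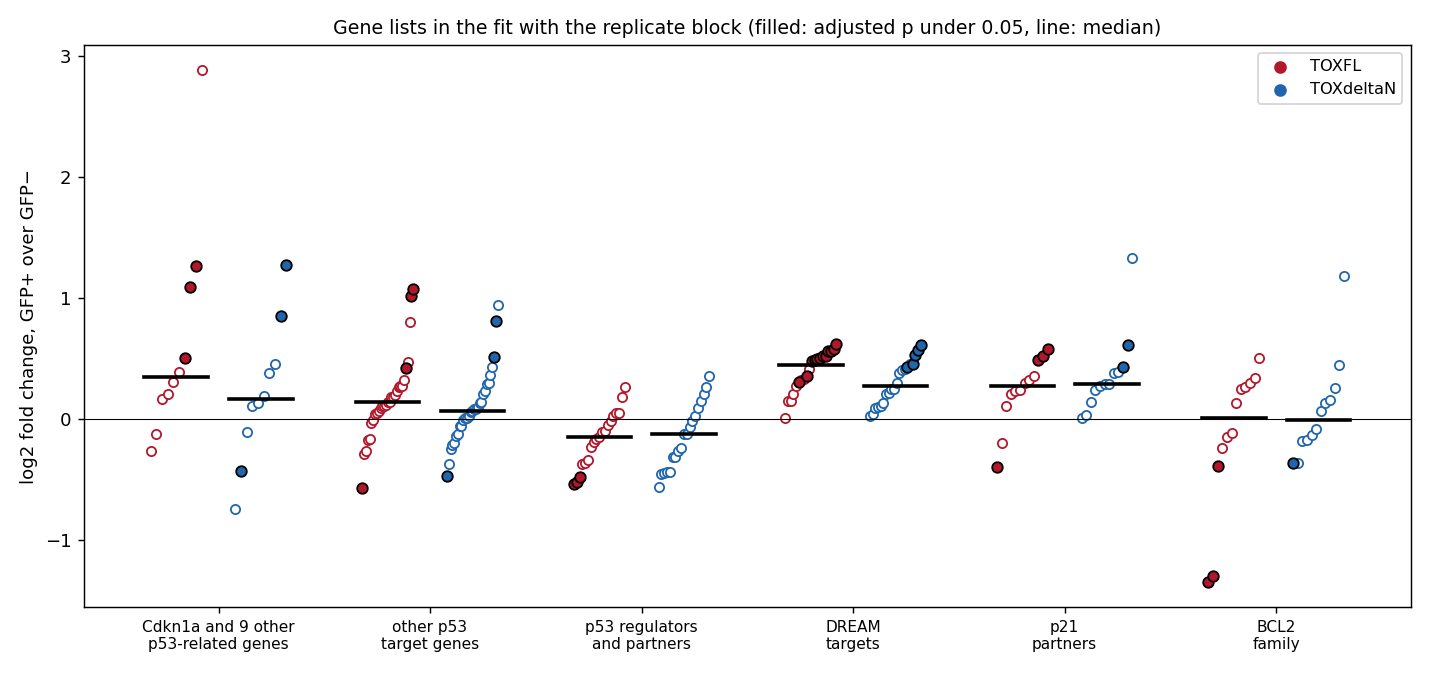
Log2 fold change (vertical axis) of each tested gene of 6 lists in GFP-positive over GFP-negative cells, with TOXFL left of TOXdeltaN, in the fit with the replicate block. Filled points have an adjusted p under 0.05 and lines are medians; all DREAM targets lie above 0, and the highest open point in the first list is Eda2r, which was near 0 counts.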

How the data were processed

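The table deposited by the authors holds estimated counts for each gene, as whole numbers with no scaling. Tools named in the submitters' processing notes are bcl2fastq 2.20, cutadapt, STAR 2.6.1 and RSEM 1.2.28, with GRCm38 as the genome. Per the labels' protocols, libraries were made from total RNA with SMART-Seq v4 and Nextera XT, a chemistry that keeps no strand. Antisense overlaps are therefore not separable, and Cdkn1a shares 273 exon bases with AC167363.2 on the other strand. The 92 spike-in rows were at 0 and left out.

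Counts were tested in R 4.3.3 with edgeR 4.0.16 (filterByExpr, TMM factors of 0.9894 to 1.02, quasi-likelihood F-test on all 8 libraries, Benjamini-Hochberg adjustment over 13329 genes, threshold 0.05), with DESeq2 1.42.0 and limma 3.58.1 as alternatives. The design without a block is the main one. Same-numbered libraries deviated together from their group means in all 6 pairs of groups (r of 0.26 to 0.346 across genes), so a fit that takes the replicate number as a block is given beside it. The pairing is inferred from the data, since its meaning is not labelled. The biological coefficient of variation was 0.1321 without the block and 0.0958 with it. CPM values use the TMM factors. The code of the fits was tried on simulated counts with the same dispersion in every gene and group, and changes in TOXFL-positive libraries only. That setting lacks the unequal spread of these libraries, so it does not give error rates for them. The genes and gene lists were chosen with earlier results of these data known. Named genes are the 10 genes, the list members called in either fit for a construct (a part of them for the DREAM list), list members with high levels and the 5 genes most like Cdkn1a.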

Additional observations from a re-analysis of the deposited data

How the results depend on the processing

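Direction was stable: the changes with GFP for TOXFL, TOXdeltaN and their average kept their sign in all 74 values of each of the 10 genes except Bbc3 (3 of 74 changed sign) and Eda2r (7 of 72). Calls were not. With the replicate block 464, 220 and 1697 genes were called for TOXFL, TOXdeltaN and the average, against 6, 4 and 323 without it, and 3, 3 and 6 of the 10 genes, against 0, 0 and 3. In edgeR on all 8 libraries 0 genes were called for the difference of the constructs, with or without the block. The 2 groups alone gave 2 and 0 genes. Without a filter there were 678, 516 and 1665 genes, and 45 for the difference, with 3, 4 and 6 of the 10. DESeq2 gave 314, 121, 1058 and 7 genes, with 3, 3 and 5 of the 10. The blocked DESeq2 fit, chosen after seeing the data like the blocked limma-voom fit, gave 761, 651, 1867 and 6 genes, with 3, 4 and 6 of the 10. The blocked limma-voom fit gave 489, 255 and 1756 genes, with 3, 4 and 6 of the 10. The cause of these differences was not tested.

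Leaving out 1 library at a time, without the block, gave 0 to 122 genes for TOXFL, 0 to 1571 for TOXdeltaN, 5 to 2504 for the average and 0 to 1 for the difference, and 0, 0 to 4, 0 to 6 and 0 of the 10. With the block kept the ranges were 30 to 1772, 0 to 2650, 312 to 3681 and 0 to 449 genes, and 2 to 6, 0 to 4, 2 to 7 and 0 of the 10. Most of the highest counts came without TOXdeltaN-positive replicate 1. Each such fit leaves 1 library in a group, which then adds nothing to the estimate of the spread. Calls gained in this way, for Cdkn1a too, are therefore no added support.

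Values that changed sign were near 0 or had few counts. Leaving out libraries gave Bbc3 -0.0247 to 0.332 for TOXFL and -0.102 to 0.362 for TOXdeltaN (-0.00285 to 0.256 with the block). Eda2r for TOXdeltaN ran from -2.32 to 4.98 (-3.21 to 5.77 with the block), with 0.465 by limma-voom and 0.861 by blocked limma-voom, and its average with the block from -0.0907 to 4.4. For the difference of the constructs without the block the ranges were -0.358 to 0.351 for Cdkn1a (0.00124 by limma-voom), -0.0384 to 0.549 for Phlda3, -0.332 to 0.0486 for Bax, -0.196 to 0.269 for Bbc3, -0.228 to 0.231 for Zmat3, -0.0847 to 0.0544 for Trp53 and -2.04 to 6.64 for Eda2r. With the block kept they were -0.0852 to 0.0812 for Cdkn1a, -0.307 to 0.0217 for Bax, -0.0934 to 0.167 for Bbc3, -0.125 to 0.143 for Zmat3, -0.0945 to 0.0642 for Trp53 and -2.74 to 6.49 for Eda2r.

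The limits are 2 libraries per group, replicate numbers of unknown meaning, and unequal spread between replicates (chi-square per degree of freedom of 11.92 to 41.81, highest in TOXdeltaN-positive). Depth limits only Eda2r among the 10 genes.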
